A study of Homo sapiens with 12 samples.

Results

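10 genes for molecules through which macrophages stimulate or restrain other immune cells were followed in tumor-associated macrophages (TAMs): CD80, CD86, CD274, PDCD1LG2, CD276, ICOSLG, CD40, VSIR, HAVCR2 and SIRPA. They were taken by gene name from the deposited count table, in which all 10 were found among 58735 genes, and all 10 were among the 16046 genes that passed the filter on low counts. The TAMs were THP-1 cells, a human acute monocytic leukemia line, differentiated with the phorbol ester PMA and cocultured with AsPC-1 cells, a human pancreatic cancer line, without direct contact across a Transwell membrane. In the control group the AsPC-1 cells carried an empty lentiviral vector. In the OE-MMP28 group they overexpressed MMP28, a secreted matrix metalloproteinase. The OE-MMP28 + anti-IL-8 and OE-MMP28 + anti-VEGFA groups had the same overexpressing cells and a neutralizing antibody against IL-8 or VEGFA. Each of the 4 groups held 3 libraries, no group was labelled as receiving a control antibody, and no label says whether replicates were separate cultures, so p-values measure only the spread between these libraries. THP-1 cells are a single leukemia line and stand in for macrophages of a patient.

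T cells need a second signal beside the antigen receptor, and the B7 family on macrophages and dendritic cells gives or withholds it. CD80 and CD86 engage CD28 or, with higher affinity, the inhibitory receptor CTLA4, and ICOSLG engages ICOS. CD40, a TNF receptor family member, receives the CD40 ligand of activated T cells and raises the antigen-presenting capacity of the cell. CD274 (PD-L1) and PDCD1LG2 (PD-L2) engage the inhibitory receptor PD-1, and their transcription is known to be induced by interferons through JAK and STAT proteins. CD276 (B7-H3) and VSIR (VISTA) belong to the inhibitory side of the family. HAVCR2 (TIM-3) and SIRPA are inhibitory receptors of the macrophage itself, the latter reading CD47, the "do not eat me" signal of other cells.

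CD274, a PD-1 ligand gene, is the member for which a list of interferon signalling genes, described below, was drawn up. Its promoter, 250 bases before to 50 bases after the RefSeq start (GRCh38.p14, plus strand, chr9:5450292-5450591), is printed 5′ to 3′ with matches to interferon response motifs in capitals. It was chosen for display after the expression results were known. A link between these motifs and the level of CD274 was not tested.

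CD274 promoter: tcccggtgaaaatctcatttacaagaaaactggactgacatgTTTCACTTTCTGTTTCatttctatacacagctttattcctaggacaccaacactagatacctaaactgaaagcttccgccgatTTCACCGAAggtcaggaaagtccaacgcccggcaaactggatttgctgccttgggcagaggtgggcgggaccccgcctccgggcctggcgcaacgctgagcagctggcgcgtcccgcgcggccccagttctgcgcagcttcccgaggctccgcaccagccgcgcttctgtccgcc

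The first capital stretch holds 2 overlapping matches to the ISRE letters (GAAA, any 2 bases, GAAA) on the minus strand, at -208 to -199 and -202 to -193 from the start base. The second is a match to the GAS letters TTCNNNGAA, which read the same on both strands, at -125 to -117. Both strands of all windows were searched. Of 35116 RefSeq promoters of the same length, 3.57% hold an ISRE match and 7.66% a GAS match. Promoters were available for 6 of the members, in 8 windows in all, and of these only the CD274 window held a match to either motif. None was available for PDCD1LG2, CD40, HAVCR2 and SIRPA, so whether their promoters hold a match is not known. The NF-kB consensus, found in 11.3% of all promoters, matched in 1 of the 2 CD86 windows, 1 of the 2 CD276 windows and the VSIR window. These are matches of letters and no measure of binding.

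Library totals ran from 15852346 to 18701195 counts, and mitochondrial genes took 6.92% to 17.8% of them, the most in anti-VEGFA replicate 2. MMP28 had 0 counts in all 12 TAM libraries, so the overexpression in the other chamber could not be checked from them. A floor of 3 counts, the limit that a count of 0 allows, corresponds to 0.160 to 0.195 CPM (counts as a share of the TMM-scaled library total). Of 13 macrophage markers 11 passed the filter, and the summed level of all 13 was 2648 to 2955 CPM in control, 2858 to 4353 in OE-MMP28, 3768 to 4465 under anti-IL-8 and 3601 to 3881 under anti-VEGFA. CD14 (log2 fold change 0.80, adjusted p 0.027) and FCGR1A (0.72, 0.011) rose in OE-MMP28 against control, whereas CD68 with 0 to 5 counts and MRC1 with 0 to 4 were at or near 0 throughout. The CD68 value is uncertain, since 81.7% of its exon bases lie in exons of AC016876.2 on the same strand. CD163 had 27 to 74 counts. The sum leans on abundant genes such as CD14 (650 to 1771 CPM), and the markers did not all move alike. Of the 11 tested, 8 were higher by point estimate in OE-MMP28 against control and 8 with anti-IL-8 against control. With anti-VEGFA against control 5 were, and the median log2 fold change was -0.062. The epithelial keratin genes KRT8, KRT18 and KRT19 summed to at most 0.762 CPM, and EPCAM was at 0 in every library. The T cell genes CD3D, CD3E and CD3G were also at 0 in every library. Other genes of these lists were present, the highest being CLDN7 at 3.98 to 10.9 CPM and TRAC at 9.03 to 19.2. The lists summed to 7.48 to 15.2 CPM for 12 epithelial genes and to 10.3 to 19.6 CPM for 7 T cell genes. In OE-MMP28 against control 1 gene each of the epithelial, B cell and dendritic cell lists passed, all lower: MUC1 (-0.96), PAX5 (-2.37) and LAMP3 (-0.91). Over all genes 0.523% passed an adjusted p of 0.05 as higher and 2.64% as lower. The part of the shift in macrophage markers in the results below was not tested, and in bulk RNA fewer cells with a transcript cannot be told apart from less of it per cell.

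The 10 genes differed widely in transcript level. Levels are compared between genes as the deposited FPKM values, which divide by gene length as well as by depth. SIRPA (64.6 ± 8.31 FPKM, mean ± SD over 12 libraries) and CD276 (61.0 ± 11.0) stood at the top and their ranges overlapped. HAVCR2 followed with 36.0 ± 5.02 FPKM, apart from its neighbours on both sides. CD40 (21.1 ± 2.45 FPKM) and VSIR (19.5 ± 3.07) overlapped with each other. CD274 had 5.90 ± 1.52 FPKM and PDCD1LG2 2.64 ± 0.718, and within each group every library had more CD274 than PDCD1LG2. ICOSLG (0.369 ± 0.108 FPKM), CD86 (0.287 ± 0.138) and CD80 (0.240 ± 0.0652) lay at the bottom, with overlapping ranges. The inhibitory members SIRPA, CD276 and HAVCR2 led, and the CD28 ligands CD80 and CD86 had the lowest means over 12 libraries, although ICOSLG was slightly below CD86 in control (0.299 and 0.303 FPKM) and in OE-MMP28 (0.329 and 0.399). The order of the means was the same when TMM-scaled counts were divided by gene length.

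**Figure D1:**
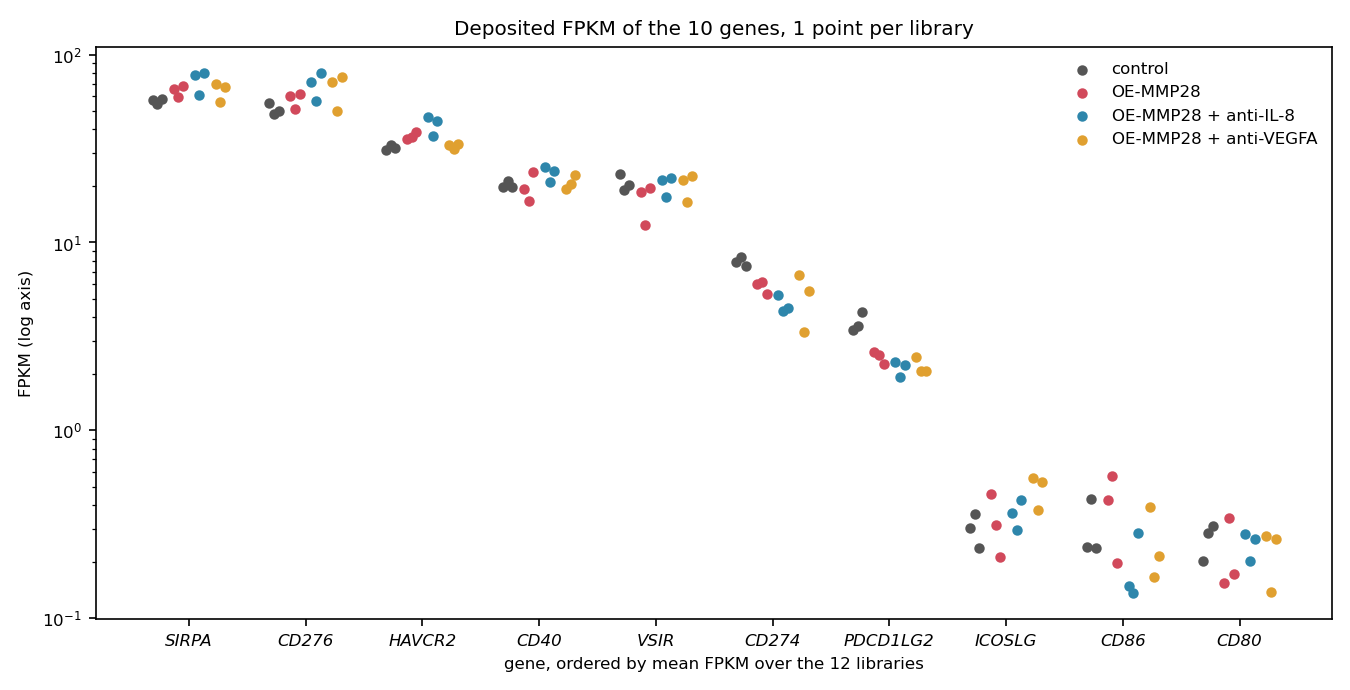
Deposited FPKM (vertical log axis) of the 10 genes, ordered by their mean over 12 libraries, with 1 point per library coloured by group. SIRPA and CD276 sit near 60 and CD80 and CD86 below 1, and the gap between PDCD1LG2 and ICOSLG is free of points.

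CD274, at chr9:5450503-5470566 on the plus strand, had 556, 604 and 528 counts in the control libraries. OE-MMP28 libraries held 453, 440 and 356 counts, those with anti-IL-8 336, 302 and 281, and those with anti-VEGFA 470, 218 and 432. Every library with OE-MMP28 cells was below every control library. On the TMM scale the mean was 33.0 ± 1.82 CPM in control (mean ± SD, n = 3), 24.3 ± 1.83 in OE-MMP28, 19.3 ± 2.06 under anti-IL-8 and 21.6 ± 7.15 under anti-VEGFA, the last spread resting on replicate 2 with 13.8 CPM beside 27.9 and 23.0.

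PDCD1LG2, its neighbour at chr9:5510570-5571254 on the same strand, had 138, 148 and 173 counts in control. The counts were 114, 103 and 87 in OE-MMP28, 85, 78 and 81 under anti-IL-8, and 100, 78 and 93 under anti-VEGFA. All 9 libraries with OE-MMP28 cells were again below the 3 controls. Mean levels were 8.98 ± 1.12 CPM in control, 5.91 ± 0.430 in OE-MMP28, 5.12 ± 0.439 under anti-IL-8 and 5.28 ± 0.568 under anti-VEGFA.

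**Figure D2:**
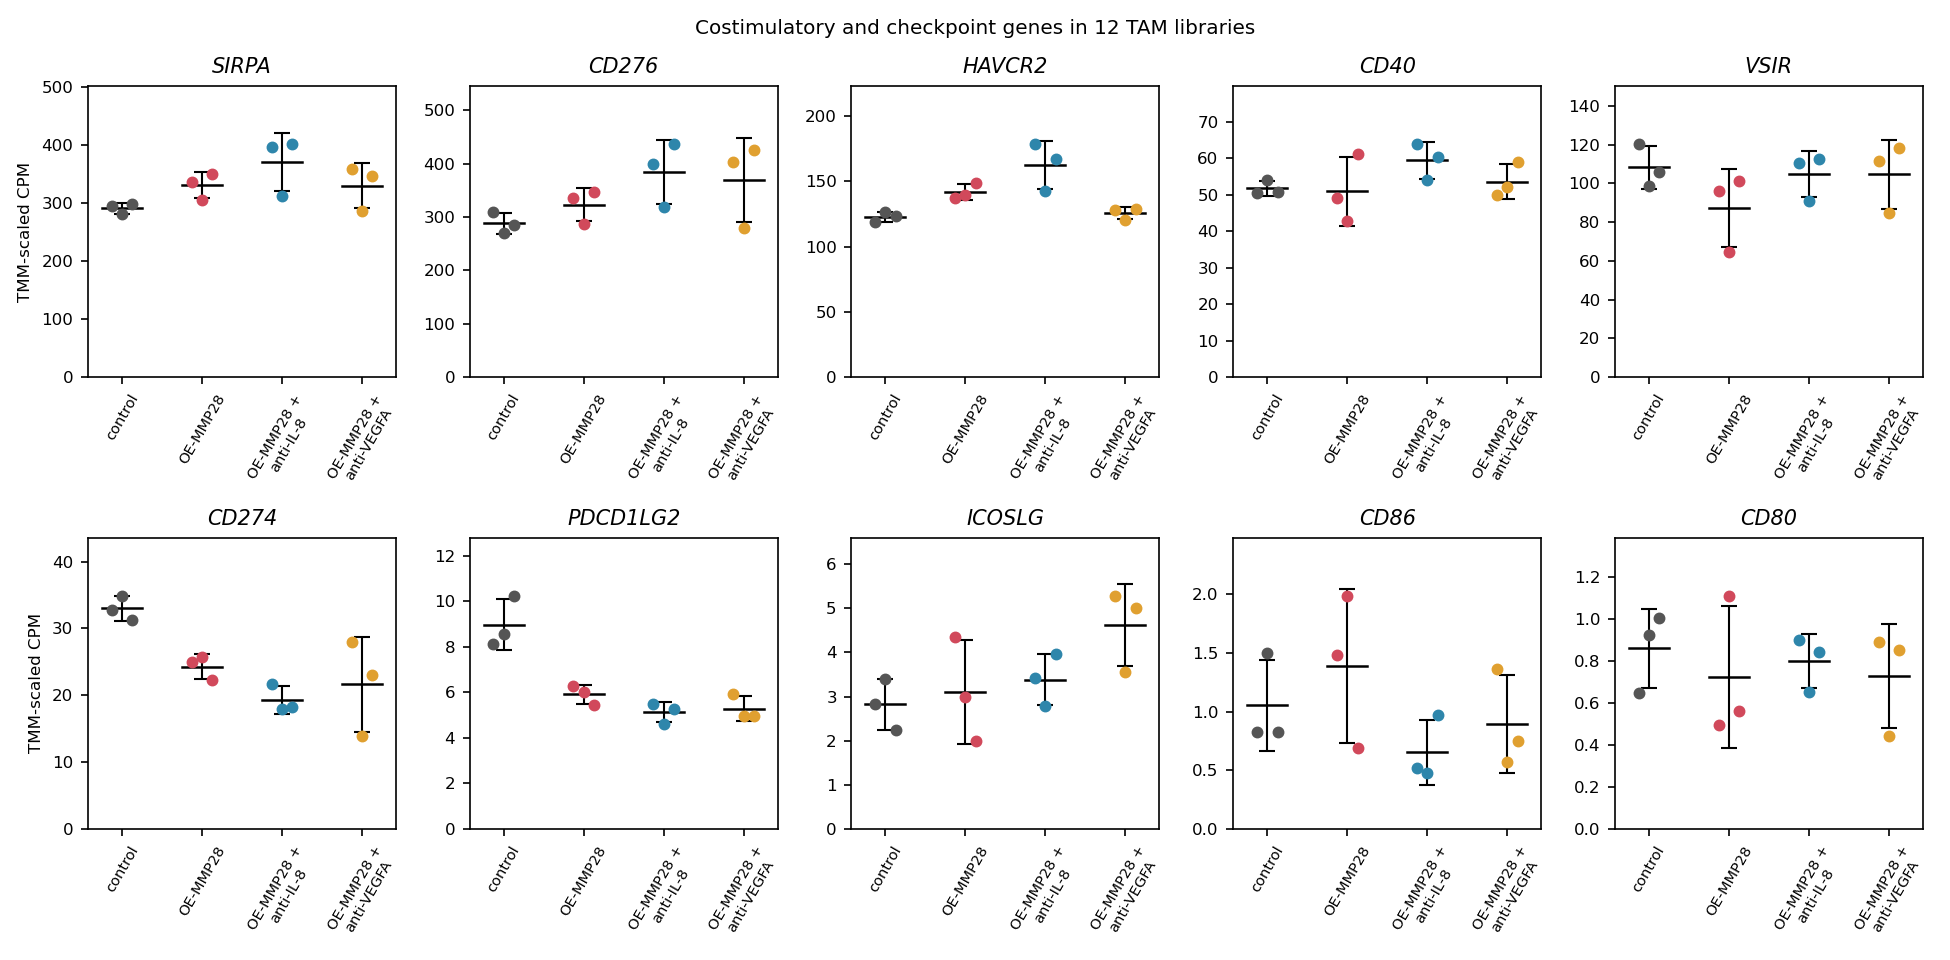
TMM-scaled CPM of each gene in the 12 libraries (points), with the group mean as a bar and the SD as whiskers, each panel on its own linear axis from 0. CD274 and PDCD1LG2 have their 3 control points above all others, and CD80 and CD86 lie below 2 CPM with groups that overlap.

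The first question of the design is what OE-MMP28 cancer cells change in the macrophages. Between OE-MMP28 and control, none of the 10 genes passed an adjusted p of 0.05 (edgeR quasi-likelihood test, Benjamini-Hochberg over 16046 genes), where 3.16% of all tested genes did and 2.64% in the lower direction. An unadjusted threshold of 0.05 was met by 2 members, both PD-1 ligand genes, against 14.5% of all genes. The study's methods give this threshold for RNA sequencing of tumor cells. Its results also ask there for an absolute log fold change over 1, which neither gene reached. PDCD1LG2 was lower by a log2 fold change of -0.59 (SE 0.17, 95% interval -0.94 to -0.24, adjusted p 0.062) and CD274 by -0.44 (SE 0.18, interval -0.83 to -0.05, adjusted p 0.27). Testing log2 FPKM with limma brought PDCD1LG2 to an adjusted p of 0.040 and 0.047 with pseudocounts of 1 and 0.1. The libraries of the groups did not overlap for 4 of the 10 genes, PDCD1LG2 and CD274 lower and HAVCR2 and SIRPA higher, where 21.3% of all genes did not overlap.

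The remaining intervals show what size of change these libraries leave possible. HAVCR2 gave 0.21 (interval -0.03 to 0.45) and SIRPA 0.19 (-0.09 to 0.46). CD276 gave 0.17 (-0.17 to 0.50), CD40 -0.03 (-0.31 to 0.26) and VSIR -0.31 (-0.66 to 0.04). The intervals of the scarce transcripts were wider, with ICOSLG at 0.14 (-0.43 to 0.70), CD86 at 0.37 (-0.49 to 1.22) and CD80 at -0.22 (-0.998 to 0.56).

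Set against control as a mean of all 9 libraries with OE-MMP28 cells, the PD-1 ligand genes both passed the adjusted threshold. These libraries include both antibody groups, and no group was labelled as receiving a control antibody. The comparison therefore cannot tell the antibodies apart from the OE-MMP28 cells, and OE-MMP28 without antibody against control called neither gene. PDCD1LG2 fell (log2 fold change -0.71, SE 0.13, interval -0.99 to -0.44, adjusted p 0.0017) and so did CD274 (-0.61, SE 0.15, interval -0.91 to -0.30, adjusted p 0.012). These were 2 of 10 members, against 12.6% of all genes called and 7.35% called lower. They were also the 2 members whose 9 libraries were separate from the 3 controls, where 8% of all genes were. CD276 (0.32, adjusted p 0.12), SIRPA (0.24, adjusted p 0.16) and HAVCR2 (0.21, adjusted p 0.15) passed at the unadjusted threshold only, which made 5 of 10 members there against 28.4% of all genes. Without control replicate 1 or 2 the CD274 call was lost (adjusted p 0.057 and 0.085), with log2 fold changes of -0.61 and -0.56. Without anti-VEGFA replicate 2, CD276 passed the adjusted threshold too (0.39, adjusted p 0.028).

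**Figure D3:**
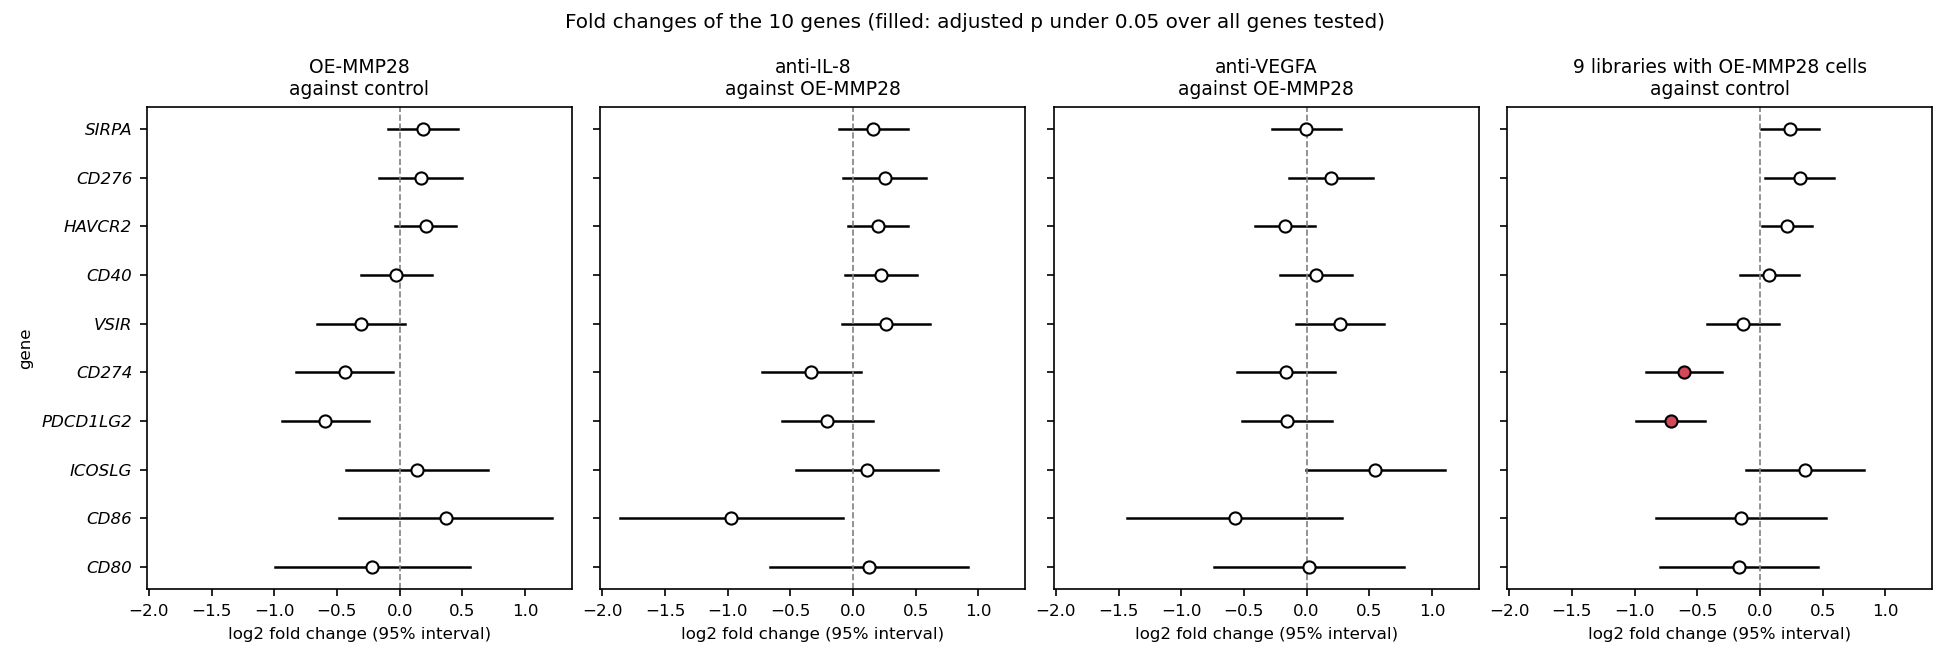
Log2 fold changes (horizontal axis) of the 10 genes with 95% intervals in 4 comparisons, filled where the adjusted p over all genes was under 0.05. The filled points are CD274 and PDCD1LG2 in the comparison of 9 libraries with control, and the intervals of CD86 and CD80 are the widest.

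The second question is whether neutralizing IL-8 or VEGFA changes these genes in the presence of OE-MMP28 cells. Against OE-MMP28 alone, no member passed the adjusted threshold with anti-IL-8, nor did any of the 16046 genes (0%), although 29.3% of all genes passed at an unadjusted p of 0.05 and DESeq2 called 2122. Neither PD-1 ligand gene moved back toward the control level by its point estimate. CD274 was at -0.33 (interval -0.73 to 0.06, adjusted p 0.24) and PDCD1LG2 at -0.20 (-0.57 to 0.16, adjusted p 0.44). The upper bounds lay below the sizes of the point estimates in OE-MMP28 against control. Those estimates had intervals of their own, -0.83 to -0.05 for CD274 and -0.94 to -0.24 for PDCD1LG2. They also rest on the same OE-MMP28 libraries, so the bounds do not show how much of a difference could return.

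CD86 was the single member at the unadjusted threshold with anti-IL-8, with a log2 fold change of -0.97 (SE 0.42, interval -1.86 to -0.08, adjusted p 0.14). It rests on few reads, 27, 34 and 11 counts in OE-MMP28 beside 8, 8 and 15 under anti-IL-8, and the groups overlapped. The change was -0.66 (adjusted p 0.52) without OE-MMP28 replicate 2, and -0.23 on log2 FPKM with a pseudocount of 1. Without OE-MMP28 replicate 3 it was -1.25 with an adjusted p of 0.037, CD40 passed as well (0.39, adjusted p 0.038), and 4125 of all genes were called. With all libraries CD40 gave 0.22 (interval -0.06 to 0.51).

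With anti-VEGFA no member passed either threshold against OE-MMP28, where 0.343% of all genes were called and 18.8% passed unadjusted. ICOSLG came nearest at 0.55 (interval -0.0029 to 1.10, p 0.051, adjusted p 0.27), from 79, 51 and 32 counts to 89, 56 and 94. CD274 gave -0.17 (-0.56 to 0.22) and PDCD1LG2 -0.16 (-0.52 to 0.20), CD86 -0.57 (-1.44 to 0.29) and CD80 0.02 (-0.74 to 0.78).

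Each antibody group was also set against control, in comparisons that share the 3 control libraries with those above and are therefore not independent of them. With anti-IL-8, CD274 (log2 fold change -0.77, SE 0.19, adjusted p 0.0094) and PDCD1LG2 (-0.80, SE 0.17, adjusted p 0.0046) fell and HAVCR2 rose (0.40, SE 0.11, adjusted p 0.021). These 3 of 10 stood beside 20.7% of all genes called, 10.9% lower and 9.77% higher, and 5 of 10 members beside 35.9% at the unadjusted threshold. The other members past that threshold were CD276 (0.42, adjusted p 0.068) and SIRPA (0.35, adjusted p 0.068). Both passed the adjusted threshold without OE-MMP28 replicate 2 or 3, anti-IL-8 replicate 2 or anti-VEGFA replicate 2 (adjusted p 0.019 to 0.049). With anti-VEGFA, PDCD1LG2 (-0.75, SE 0.17, adjusted p 0.0084) and CD274 (-0.61, SE 0.18, adjusted p 0.043) fell, 2 of 10 against 11% of all genes and 5.37% lower. ICOSLG (0.69, adjusted p 0.10) and CD276 (0.36, adjusted p 0.15) brought the unadjusted count to 4 of 10, against 27% of all genes. The CD274 value with anti-VEGFA leaned on replicate 2, the library with the highest mitochondrial share, and was -0.36 (adjusted p 0.14) without it, whereas CD276 then passed (0.54, adjusted p 0.029). Its call was also lost without any one control or anti-IL-8 library, OE-MMP28 replicate 1 or anti-VEGFA replicate 3 (adjusted p 0.053 to 0.14).

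HAVCR2 encodes TIM-3, an inhibitory receptor that myeloid cells share with exhausted T cells. It had 2015, 2192 and 2084 counts in control, 2491, 2393 and 2386 in OE-MMP28, 2773, 2407 and 2574 under anti-IL-8 and 2160, 1898 and 2409 under anti-VEGFA. The means were 123 ± 3.90 CPM in control, 142 ± 6.25 in OE-MMP28, 163 ± 18.2 under anti-IL-8 and 126 ± 4.55 under anti-VEGFA. The 3 anti-VEGFA libraries were all below the 3 under anti-IL-8 in CPM, and the direct comparison gave -0.37 (SE 0.11, interval -0.61 to -0.13, unadjusted p 0.0046). After adjustment p was 0.17, so it did not pass. It was the only one of 10 members under the unadjusted threshold between the antibodies, where 15% of all genes were, and 0.199% of all genes passed the adjusted one. The call of HAVCR2 against control with anti-IL-8 was lost without any one control library (adjusted p 0.065 to 0.076) and without anti-IL-8 replicate 1 or 3 (0.089 and 0.071).

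CD276 and SIRPA were the most abundant members. CD276 had 5237, 4681 and 4807 counts in control, 6122, 4914 and 5547 in OE-MMP28, 6213, 5373 and 6727 under anti-IL-8 and 6787, 4417 and 7997 under anti-VEGFA. SIRPA had 4987, 4854 and 5047 counts in control, 6130, 5233 and 5611 in OE-MMP28, 6173, 5267 and 6187 under anti-IL-8 and 6034, 4506 and 6495 under anti-VEGFA. On the TMM scale the library numbered 2 was the lowest in each of the 4 groups for CD276, SIRPA and VSIR.

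VSIR had 2037, 1706 and 1790 counts in control and 1751, 1103 and 1621 in OE-MMP28, where replicate 2 was the lowest of all 12 libraries. With anti-IL-8 it had 1717, 1533 and 1731, and with anti-VEGFA 1881, 1331 and 2213. CD40 stayed between 729 and 1103 counts, and its group means between 50.8 and 59.4 CPM. Neither gene passed a threshold in any of the 7 comparisons.

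CD86 and CD80, the CD28 ligands, were near the lower limit of these libraries. CD86 summed to 54 counts over the 3 control libraries (exact Poisson 95% interval 40.6 to 70.5, counting error only), 72 in OE-MMP28 (56.3 to 90.7), 31 under anti-IL-8 (21.1 to 44.0) and 46 under anti-VEGFA (33.7 to 61.4). CD80 summed to 44, 37, 38 and 38 counts in the same order. The CD86 libraries of a group lay far apart, as the 34 and 11 counts in OE-MMP28 show, and the CD80 libraries ranged from 7 to 19 counts overall. The wide intervals given above for CD80 and CD86 leave changes of many sizes possible, and they are no limit of detection. The CD86 interval with anti-IL-8 against OE-MMP28, -1.86 to -0.08, held only negative values, but the gene did not pass the adjusted threshold there.

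CD86 is also the marker that the study measured by quantitative PCR. The CD86 primer sites were copied from the study's primer list and matched here to GENCODE transcripts on GRCh38. They are shown as read on the plus strand, to place the PCR amplicon within the gene counted here.

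CD86 forward primer site, chr3:122106266-122106287: tgctcatctatacacggttacc
CD86 reverse primer site, chr3:122106336-122106357: tcgagtatgatggtgttatgca

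Both sites lie in the same exon, which is exon 4 of 7 in 2 of the matching transcripts, and both are present in 6 of the 9 annotated CD86 transcripts. The RNA-seq count sums reads over all exons, so it also covers transcripts that the primers do not amplify.

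Some counts may hold reads of other genes. Of the exon bases of CD80, 24.9% overlap TIMMDC1 on the opposite strand, a gene with 1393 to 2266 counts per library, and the strand setting of the counting was not given in the sources used here. Of the 50-base stretches of ICOSLG transcripts, 34.5% also occur in another gene, among them FP565260.3 with 5 to 36 counts. For SIRPA the share was 15.1%, with SIRPB1 at 38 to 94 counts, against 4506 or more for SIRPA itself. No 50-base stretch of CD274, PDCD1LG2, CD86, CD40 or VSIR was shared.

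Genes of the surrounding pathways were counted from 10 lists, which were chosen with earlier results of these data known. The shares of a list are therefore a description and no test of enrichment. In OE-MMP28 against control, 4 of the 9 interferon signalling genes reported fell and none rose, where 2.64% of all genes were called lower. Their median log2 fold change was -0.21 beside 0.02 over all genes. STAT2, a transcription factor of the type I interferon response, fell from 293 ± 25.3 to 110 ± 16.5 CPM (-1.41, SE 0.14, adjusted p 3.6e-06). IRF9, a DNA-binding factor of ISRE sequences, fell from 8.87 ± 0.673 to 4.74 ± 0.883 CPM (-0.89, SE 0.20, adjusted p 0.018). The other fallers, named after their values were seen, were IRF1 (-0.79, SE 0.15, adjusted p 0.0045), a factor that binds the CD274 promoter, and JAK2 (-0.60, SE 0.16, adjusted p 0.048), a kinase of the interferon gamma receptor. The receptor genes IFNGR1 (0.34, adjusted p 0.17) and IFNGR2 (0.28, adjusted p 0.32), JAK1, STAT3 and IRF2 did not pass. IRF9 lost its call without any one control library (adjusted p 0.050 to 0.11) or OE-MMP28 replicate 2 (0.067), and JAK2 without any one control library or OE-MMP28 replicate 1 or 3 (0.098 to 0.24), and without anti-IL-8 replicate 1 or 3 or anti-VEGFA replicate 3 (0.067 to 0.075). The JAK2 call was also lost with library totals (0.069), on FPKM with pseudocounts of 1 and 0.1 (0.070 and 0.077) and with the compared groups alone (0.072).

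**Figure D4:**
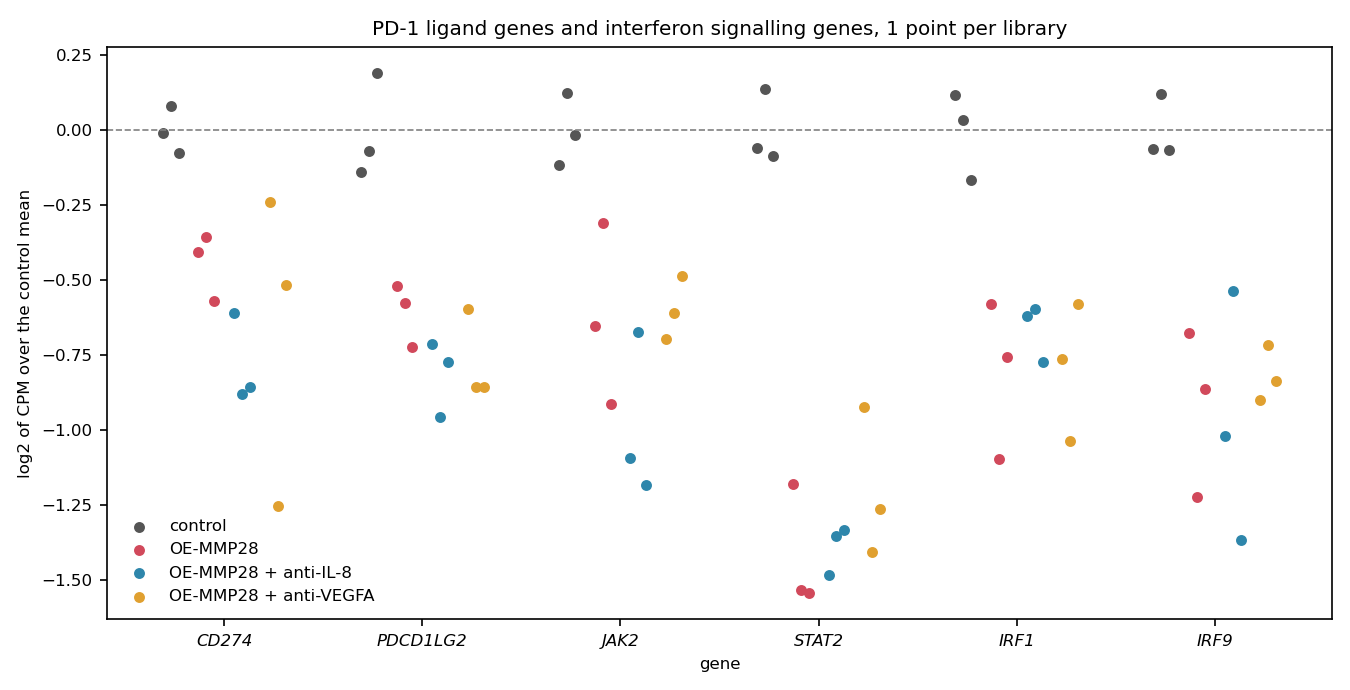
Log2 of TMM-scaled CPM over the control mean (vertical axis) for the PD-1 ligand genes and 4 interferon signalling genes, with 1 point per library coloured by group. All 9 libraries with OE-MMP28 cells are below the 3 controls for each of the 6 genes, where 8% of all genes were separate in either direction. The interferon genes were drawn because they were called lower in OE-MMP28 against control, and reported genes of that list that did not pass are not shown. In OE-MMP28 the STAT2 points lie farther from 0 than those of CD274 and PDCD1LG2.

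None of these genes changed further with an antibody at the adjusted threshold against OE-MMP28. STAT2 stood at 112 ± 6.27 CPM under anti-IL-8 and 129 ± 22.9 under anti-VEGFA, beside 110 ± 16.5 in OE-MMP28. Whether the fall of these genes has a part in the lower CD274 and PDCD1LG2 was not tested.

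The other 9 lists held 1 called gene between OE-MMP28 and control. LAIR1, an inhibitory collagen receptor of leukocytes, rose from 53.2 ± 3.64 to 85.6 ± 5.46 CPM (0.68, SE 0.12, adjusted p 0.0022). It was 1 of 11 tested inhibitory myeloid receptors, where 0.523% of all genes were called higher. No gene was called among 7 tested B7 relatives and butyrophilins, 6 TNF superfamily ligands, 9 adhesion and SLAM partners, 9 other checkpoint ligands, 4 T cell receptors of the ligands, 14 genes of CD40 and NF-kB signalling, 5 of PD-L1 protein handling and 5 of SIRPA signalling. Against OE-MMP28 the 10 lists had 0 calls with either antibody, where 0% of all genes were called under anti-IL-8 and 0.343% under anti-VEGFA, so the count says nothing particular to these lists.

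Among protein-coding genes with a mean of at least 50 counts, those whose log2 CPM followed a member most closely over the 12 libraries were listed as a description. For CD274 they were HEG1 (Pearson r 0.95) and B4GALT5 (0.94), and for PDCD1LG2 DIP2B (0.96), STX17 (0.96) and TRIM38 (0.95). CD276 was followed by B4GALT3 (0.96) and PSAP (0.96), and SIRPA by SMPD1 (0.98), SLC5A6 (0.97) and again PSAP (0.97). HAVCR2 was followed by EI24 (0.97), CTSH (0.95) and P2RX4 (0.95), VSIR by PBXIP1 (0.96), PROB1 (0.95) and TNFRSF1B (0.95), CD40 by TOMM7 and LMAN2 (0.94 each), and ICOSLG by MAFG (0.83), STK35 (0.83) and FLCN (0.81). CD274 and PDCD1LG2 had r = 0.83 with each other, rank 212 among 10554 candidates. The libraries share their groups, so the coefficients are a description with no p.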

How the data were processed

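The deposited table gives raw counts for each gene, which the authors obtained with HISAT2 2.0.5 and featureCounts 1.5.0-p3 per the labels, and FPKM values, also the authors' own. Their comparisons in the same table (log2 fold changes and p-values) were not used. The genome build is not named in the sources used here; the start and end of 58724 of 58735 genes equal those of GENCODE 29 (GRCh38). Samples were grouped by their titles. In R 4.3.3, edgeR 4.0.16 filtered genes by filterByExpr, scaled totals by TMM and fitted all 4 groups with the quasi-likelihood test (prior count 2), Benjamini-Hochberg over 16046 genes, for 7 comparisons. Self-tests used simulated counts. The main fit did not pair libraries by their numbers, and 4 of 18 same-number pairs had a correlation of deviations over 0.1. All members are described; list genes were named when called in OE-MMP28 against control or in an antibody group against OE-MMP28, at most 3 per list and direction, and a few genes that these rules select are not reported here. Members and lists were chosen with earlier results of these data known. Alternatives were library totals, relative log expression scaling, DESeq2 1.42.0, limma 3.58.1 (voom, and FPKM with pseudocounts of 1 and 0.1), filters, fits of the compared groups, a replicate block and each library left out. Sequences were read from RefSeq promoters (GRCh38.p14). Figures were drawn with matplotlib 3.10.9 in Python 3.11.15.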

Additional observations from a re-analysis of the deposited data

Results flagged for a closer look

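HAVCR2 differed between the antibody groups in the direct test at the unadjusted threshold, and was lower with anti-VEGFA than with anti-IL-8 (log2 fold change -0.37, unadjusted p 0.0046, adjusted p 0.17 by edgeR). The difference did not pass the adjusted threshold over all genes. The adjusted p ran from 0.064 to 0.27 under 10 other settings and from 0.098 to 0.59 with each library left out. All 3 anti-VEGFA libraries were below all 3 anti-IL-8 libraries.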

How the results depend on the processing

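No fold change of a member named with an unadjusted p under 0.05 changed its direction in any of the alternatives run. The PDCD1LG2 call against control remained with anti-IL-8, with anti-VEGFA and over the 9 libraries under every alternative. Counts of members called moved as follows. In OE-MMP28 against control 0 became 1 on FPKM with either pseudocount and 2 unadjusted. Against OE-MMP28, the 0 with anti-IL-8 became 1 unadjusted and 0 to 2 with a library left out. Between the antibodies 0 became 1 unadjusted. For anti-IL-8 against control 3 became 5 with DESeq2, with the compared groups alone, with the replicate block and unadjusted, and ran from 2 to 5 with a library left out. CD276 (adjusted p 0.028 with the block) and SIRPA (0.039) were the added genes. The HAVCR2 call there was lost with library totals (0.069) and with no filter (0.065). For anti-VEGFA against control 2 became 1 with library totals, both FPKM settings and the compared groups alone, 4 unadjusted, and 1 to 2 with a library left out. Over the 9 libraries 2 became 5 unadjusted and 1 to 3 with a library left out. The replicate block left the other member counts within 1.5 times, and called 795 genes in all with anti-IL-8 against OE-MMP28 where the fit without it called 0. Only 4 of 12 libraries were closest to one of their own number. The cause of these differences was not tested. The intervals of CD80 and CD86, the genes with the fewest counts, were the widest, and the parts of depth and of spread between libraries in them were not separated.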

Other observations

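CD274 and PDCD1LG2 are neighbours on chromosome 9, and the 6 other genes tested within 500000 bases of them, looked at after their values were seen, did not all move alike. Over the 9 libraries with OE-MMP28 cells JAK2 (chr9:4984390-5128183) fell against control (log2 fold change -0.72, SE 0.13, adjusted p 0.0011 by edgeR). PLGRKT, which lies between JAK2 and CD274, gave -0.26 (adjusted p 0.14), and beyond PDCD1LG2 RIC1 gave -0.28 (0.13), ERMP1 -0.31 (0.13), KIAA2026 0.05 (0.84) and RANBP6 0.07 (0.75). In that comparison JAK2, CD274 and PDCD1LG2 passed the adjusted threshold. Of the genes that did not, RIC1 was lower with anti-IL-8 against control (-0.48, adjusted p 0.029) and PLGRKT with anti-VEGFA against control (-0.54, adjusted p 0.021).

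For CD276, SIRPA and VSIR, 3 of the 10 genes, the library numbered 2 had the lowest TMM-scaled level in each of the 4 groups, as it had for 3.63% of the 16046 genes tested. The libraries numbered 1 and 3 were the lowest in each group for 1.55% and 0.916% of them. CD276 had 270 CPM there beside 309 and 285 in control, and 280 beside 403 and 427 with anti-VEGFA. For VSIR the library had 64.5 CPM beside 96.3 and 101 in OE-MMP28. Across all genes the deviations of same-numbered libraries had correlations between -0.16 and 0.24, of which 4 of 18 were over 0.1. Whether libraries of a number share an effect was not tested.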
